A study of Mus musculus with 26 samples.

Results

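The genes described here are myostatin (Mstn), the follistatins (Fst, Fstl1 and Fstl3) and ligands of the TGF-beta superfamily (Inhba, Tgfb1, Tgfb2, Tgfb3, Gdf11 and Bmp4), which were taken by name and make up 10 of the 55341 genes in each count file. Their transcript levels were followed in C2C12 cells, a mouse myoblast line that exits the cell cycle and fuses into myotubes when the growth medium is replaced by differentiation medium. Myostatin is a secreted ligand, made mainly by skeletal muscle, that limits muscle mass by binding activin type II receptors and activating SMAD2 and SMAD3. GDF11, its closest relative, and activin A, the dimer of the Inhba product, use the same receptors, while the TGF-beta isoforms bind their own receptors and reach the same SMADs, and all of these ligands restrain the differentiation of cultured myoblasts. Follistatin and FSTL3 bind myostatin and activins and block them, FSTL1 shares the follistatin domain with them, and BMP4 signals through SMAD1 and SMAD5 to the Id genes.

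SMYD3, a lysine methyltransferase, was targeted with siRNAs or overexpressed in these cells, and RNA-Seq was performed on 26 libraries. For the siRNA experiment, C2C12 cells transfected with a control siRNA (siCtrl) or with siSMYD3#1 or siSMYD3#2, each directed against Smyd3, were collected at 0 h, as confluent cells, and after 24 h in differentiation medium, with 3 libraries per condition. In every condition 1 library came from RNA extracted with TRIzol and 2 from RNA extracted with NucleoSpin columns, and the TRIzol cells were of an earlier passage, so that extraction and passage cannot be told apart. For the overexpression, SMYD3 CL5, a single clone of C2C12 cells carrying a pREV retroviral vector for HA- and Flag-tagged SMYD3, was set against cells carrying the empty pREV vector at the same time points, with 2 TRIzol libraries per condition. The paper states that cells with the control vector were sub-cloned as well. Differences therefore rest on 1 SMYD3 clone and on its control line, and the part of either line in them cannot be told apart. The siRNA cells had been transfected before induction and again at induction. The study calls its replicates biological, while the sample labels do not say which libraries came from separate cultures. The p-values measure the spread between these libraries.

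The antisense strands of the siRNAs are shown because the responses of the members differed between siSMYD3#1 and siSMYD3#2. They are written without overhangs, 5′ to 3′, with the seed (bases 2 to 8) in capitals.
siSMYD3#1: gUUGGGGUcacagcuguga
siSMYD3#2: uCAAAUCUucaaucaggcu
siCtrl: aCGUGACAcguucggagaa
Each strand is 19 bases long, and the 3 seeds are different. The complement of siSMYD3#1 was found in 3 annotated mouse transcripts and that of siSMYD3#2 in 4, all of Smyd3, and the complement of siCtrl in 0. In the transcript Smyd3-204 the siSMYD3#1 site lies in coding exon 7 (GRCm38, chr1:179092935-179092953, minus strand) and the siSMYD3#2 site in coding exon 12 (chr1:178957505-178957523, minus strand).

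The depth was 14315193 to 60398170 counts per siRNA library and 21124675 to 67853386 counts per overexpression library. All 5 myoblast markers were detected in every group, at a summed level of 304 to 2605 CPM (counts relative to the TMM-scaled library size). Libraries of the same siRNA group spread widely in this sum, as from 315 to 1635 CPM in siCtrl and from 304 to 1875 CPM with siSMYD3#2 at 0 h. The vector cells at 0 h were at 786 to 885 CPM. The 6 markers of differentiating muscle summed to 422 to 1349.9 CPM in siCtrl at 24 h, 53.9 to 109 with siSMYD3#1, 193 to 217 with siSMYD3#2, 30.7 to 42.7 in the vector cells and 995 to 1032 in SMYD3 CL5. Markers of adipocytes, endothelium and leukocytes reached summed levels of at most 1.66, 2.59 and 6.62 CPM in any library, and those of bone and cartilage 31.4 to 97.1 CPM, most of it from Sox9, while the bone marker Ibsp and the macrophage marker Adgre1 were at 0 counts throughout. Smyd3, the targeted gene, was at 19.5 to 21.6 CPM in siCtrl at 0 h and at 6.37 to 8.93 CPM with siSMYD3#2, a fall of 2.66-fold (adjusted p = 0.000107), and the fall at 24 h was 2.84-fold (adjusted p = 5.06e-05). In the libraries labelled siSMYD3#1 it was at 16.9 to 19.3 CPM at 0 h and 15.1 to 19.3 at 24 h. These levels were 1.12-fold and 1.18-fold below siCtrl (adjusted p = 0.785 and 0.414). A knockdown was thus not detected for that siRNA in these gene-level counts. The paper describes cells transfected with either siRNA, siSMYD3#1 included, as SMYD3 knockdown cells. It also assayed Smyd3 transcript by qPCR and SMYD3 protein by western blot after transfection, and those assays were not part of these counts. Counts on mouse Smyd3 in SMYD3 CL5 were 1.23-fold and 1.28-fold those of the vector cells at 0 h and 24 h (adjusted p = 0.593 and 0.671). The paper reports that the tagged SMYD3 protein was checked in its clones by western blot and immunofluorescence against HA and Flag. Whether reads from the introduced cDNA are counted on mouse Smyd3 is not given in the sources used here, so these counts do not measure the overexpression. Adjusted p-values come from edgeR's quasi-likelihood test, were adjusted by Benjamini and Hochberg's method across every gene in the fit, and count as a call, or as past the threshold, when under 0.01.

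Myostatin was not detected in any sample. Mstn (ENSMUSG00000026100, GRCm38, chr1:53061640-53068079, plus strand) was listed at 0 counts in 26 of 26 libraries, including the siCtrl and SMYD3 CL5 libraries at 24 h in which the differentiation markers were highest. Over 820928315 counts in all libraries together, a count of 0 allows a level of up to 0.00365 CPM, and in a single library it allows up to 0.0442 CPM in the deepest and 0.21 CPM in the shallowest. These limits, set at 3 counts, cover counting error only. Mstn was among 20915 genes, or 37.8% of those in the files, that had 0 counts in every library. The neighbouring genes on either side were Hibch, at 411 to 1622 counts, and Pms1, at 99 to 884 counts, whereas the closer 1700019D03Rik and 1700019A02Rik had at most 5 and 3 counts. No effect of either siRNA or of SMYD3 CL5 on Mstn could be measured at this depth.

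The Mstn promoter is shown because Mstn, the muscle ligand of the family, was listed at 0 in cells with myoblast markers. The 250 bases before the start site (RefSeq, GRCm38.p6, chr1:53061390-53061639, plus strand) are printed with motif matches in capitals.
Mstn: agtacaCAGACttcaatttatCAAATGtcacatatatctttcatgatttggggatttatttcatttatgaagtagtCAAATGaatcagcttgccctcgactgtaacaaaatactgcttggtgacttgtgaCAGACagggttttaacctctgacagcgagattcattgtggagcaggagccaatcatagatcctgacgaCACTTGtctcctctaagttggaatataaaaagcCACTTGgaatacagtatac
In the window of 300 bases, which reaches past the start site, 4 motifs were searched on both strands: CANNTG, the E-box bound by MYOD and other helix-loop-helix factors, CAGAC, a SMAD box, and CCCTCC and GAGGGG, the elements described for SMYD3, which can overlap when one is read on the opposite strand. CANNTG matched at 4 positions, beginning at -229, -174, -52 and -19 from the start site, and CAGAC at 2, beginning at -244 and -120. Neither CCCTCC nor GAGGGG was present in these letters. Among 32851 windows of the same length, 72.3% held CANNTG, 49.6% CAGAC, 39.2% CCCTCC and 32.9% GAGGGG. Of the 8 members with a window (Fst and Tgfb3 had no entry), 5 held CANNTG, 3 CAGAC, 7 CCCTCC and 5 GAGGGG.

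The other 9 members were detected in all 26 libraries, over a wide range of levels. Per length of exon, Fstl1 was the highest, at a median of 168 RPKM (range 107 to 324), and no library of another member reached its range. Tgfb3 followed at 17.8 (11.8 to 27.2), Tgfb1 at 15.9 (9.53 to 24.5), Inhba at 13.0 (5.89 to 26.4), Gdf11 at 10.2 (7.76 to 15.4), Fstl3 at 9.97 (3.35 to 14.8) and Tgfb2 at 4.55 (2.73 to 16.9) RPKM. Each of these 6 overlapped its neighbours in the order, so the libraries do not separate them. Fst was lower, with a median of 0.629 RPKM (0.123 to 5.53), and Bmp4 lowest, with 0.183 (0.0187 to 3.86), and their ranges overlapped with each other and with that of Tgfb2. Follistatin, the best known antagonist of the family, was thus the scarcest of the follistatins in median level, whereas Fstl1 was abundant throughout. Parts of the exons of Fst, Fstl3, Tgfb2, Tgfb3 and Bmp4 are annotated on the opposite strand to another gene, and the strand setting of the counting is not given in the sources used here. Those partner genes had at most 19 counts in any library.

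**Figure D1:**
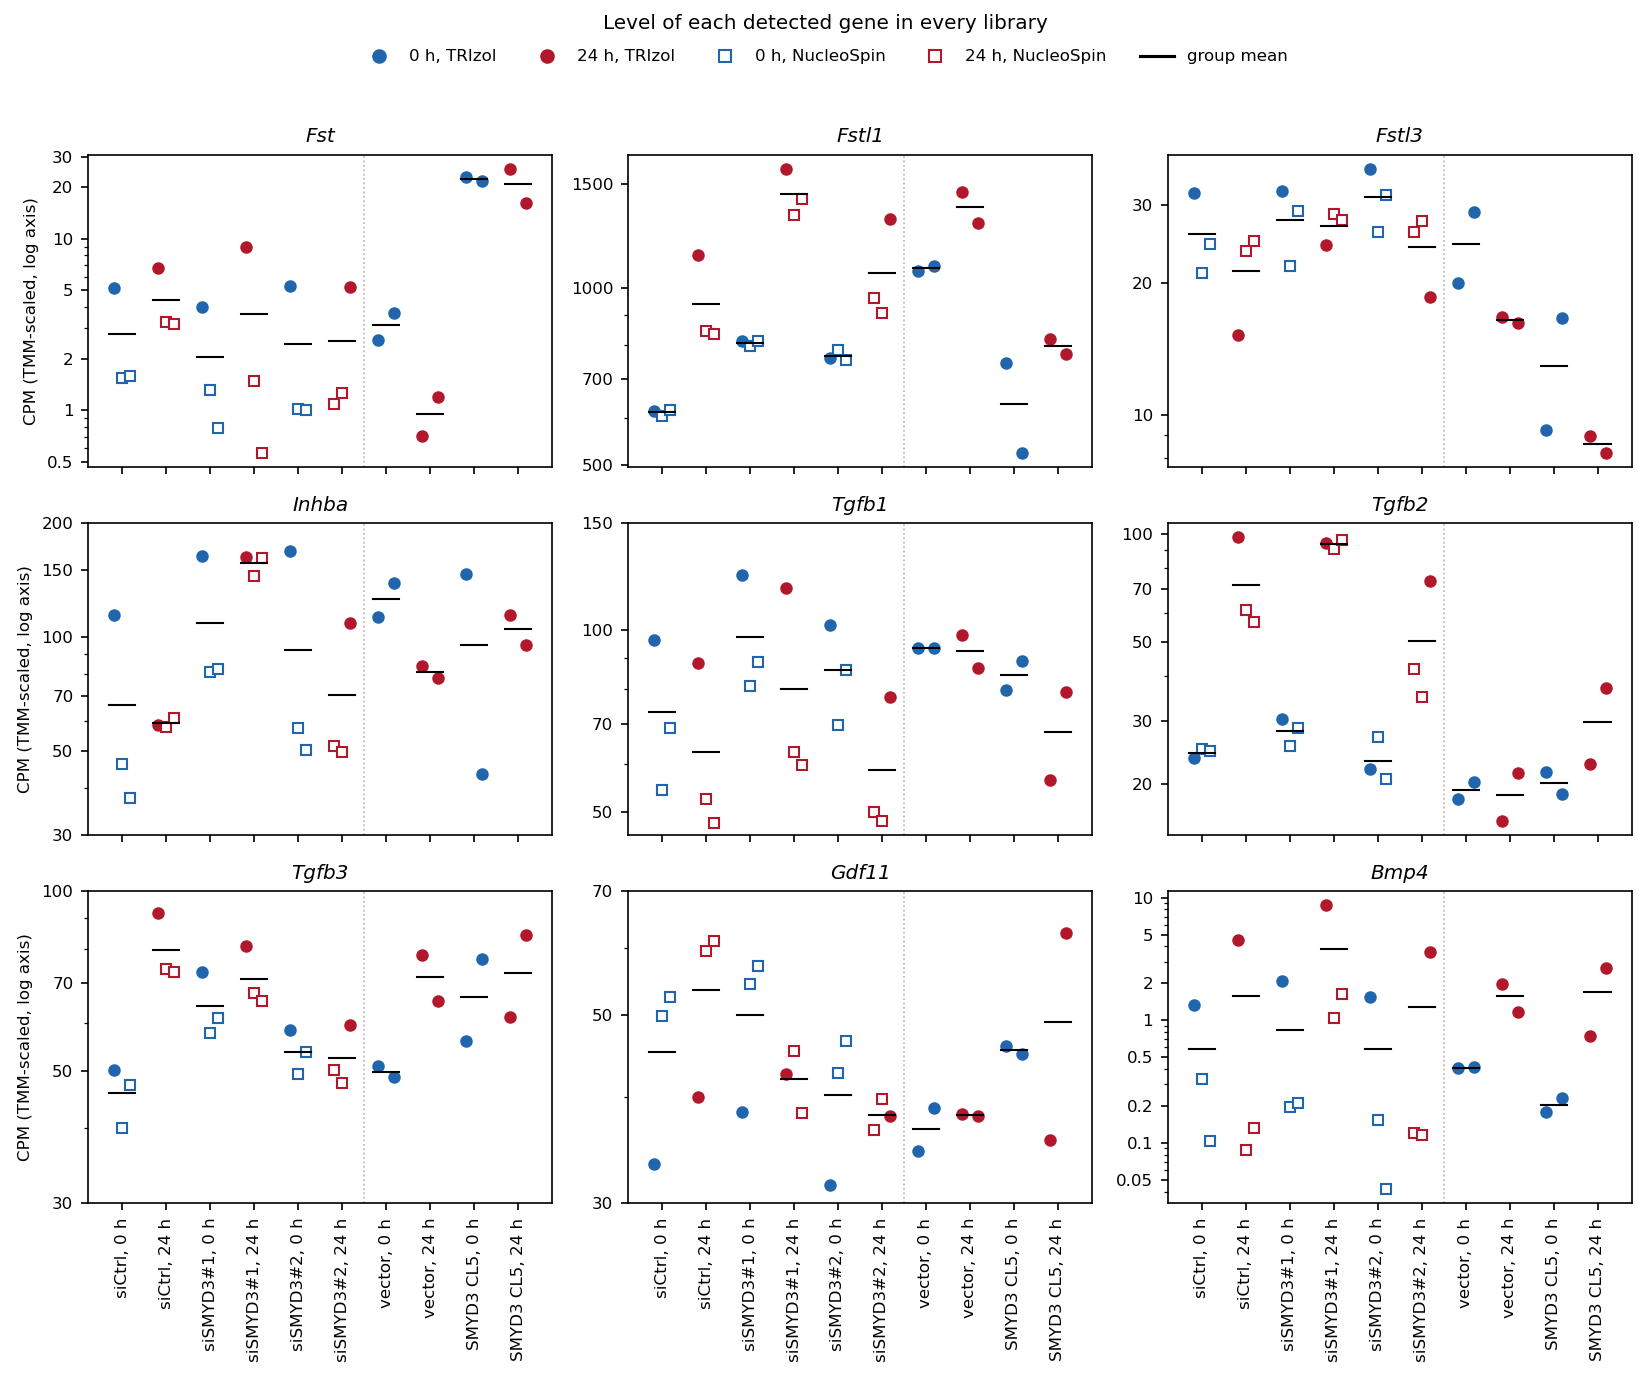
Level of the 9 detected members in each of the 26 libraries, in CPM with TMM-scaled library sizes on a log axis, 1 panel per gene. Circles are TRIzol and squares NucleoSpin libraries, blue is 0 h and red 24 h, and each line is the mean of its group. The SMYD3 CL5 libraries stand at 16.2 to 25.4 CPM in the Fst panel, above every other library, and the TRIzol circles stand above the squares of their group in the siRNA part of the Bmp4 panel.

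Several members differed between the extraction methods. Within the siRNA libraries, TRIzol against NucleoSpin called 6 of 9 members, where 51.3% of all 15820 genes were called. Bmp4 was 12.0-fold higher with TRIzol (log2 difference 3.59 ± 0.277 SE, adjusted p = 3.96e-09) and Fst 4.08-fold higher (2.03 ± 0.192, adjusted p = 5.56e-08). Inhba, Tgfb1 and Tgfb3 were 1.90-fold, 1.59-fold and 1.2-fold higher (adjusted p = 0.000479, 1.37e-07 and 0.000106), and Gdf11 was 1.29-fold lower (adjusted p = 0.000743). Extraction was a term in the siRNA fit.

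The first question was how the members behave when control myoblasts differentiate. In siCtrl, 3 of 9 members rose between 0 h and 24 h and 0 fell, where 29.4% of all genes were called (14.6% higher and 14.8% lower). The median log2 change was 0.60 over the members and 0.03 over all genes. In these bulk samples, fewer cells of a kind and less RNA per cell cannot be told apart. The genes that rose were ligands Tgfb2 and Tgfb3 and the follistatin-domain protein gene Fstl1.

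Tgfb2, a TGF-beta isoform that needs the co-receptor betaglycan for high-affinity binding, showed the largest rise. It was at 23.7 CPM in the TRIzol library and 25.0 and 24.8 CPM in the NucleoSpin libraries at 0 h, and at 97.8, 61.1 and 56.8 CPM, in the same order, at 24 h. The lowest library at 24 h lay above the highest at 0 h, and the rise was 2.87-fold (log2 1.52 ± 0.199, adjusted p = 1.74e-05), with 2.05 in the TRIzol libraries and 1.23 in the NucleoSpin libraries (adjusted p = 7.15e-07). Tgfb3, the isoform with the highest median level per length, went from 50.2, 40.0 and 47.3 CPM to 91.9, 74.0 and 73.1 CPM. Here too the times did not overlap, and the rise was 1.73-fold (log2 0.79 ± 0.0788, adjusted p = 4.05e-07). Fstl1 went from 618, 605 and 619 CPM to 1136, 843 and 834 CPM, with no overlap, a rise of 1.51-fold (log2 0.60 ± 0.102, adjusted p = 0.000127).

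The remaining members were not called in siCtrl. Fst was at 5.19, 1.54 and 1.59 CPM at 0 h and 6.72, 3.29 and 3.20 CPM at 24 h, which is 1.78-fold (adjusted p = 0.0455), and without the TRIzol library at 24 h it passed the threshold (log2 1.2, adjusted p = 0.00627). Inhba, which encodes the activin A subunit, moved in opposite directions with the extraction. It was at 114 CPM at 0 h and 58.5 CPM at 24 h in the TRIzol libraries, but at 46.3 and 37.6 CPM and then at 57.9 and 61.2 CPM in the NucleoSpin libraries, whose own fit gave a log2 change of 0.49 (adjusted p = 0.0013) against 0.04 (adjusted p = 0.921) with all libraries. Fstl3 had a log2 change of -1.07 between the TRIzol libraries and of 0.06 in the NucleoSpin libraries (adjusted p = 0.741). Bmp4 had a log2 change of 0.98 (adjusted p = 0.132), with 1.75 between the TRIzol libraries and -0.81 (adjusted p = 0.467) between the NucleoSpin libraries, which had 9 and 6 counts at 0 h and 2 and 2 at 24 h. Tgfb1 and Gdf11 had log2 changes of -0.23 and 0.24 (adjusted p = 0.11 and 0.144).

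In cells treated with an siRNA against Smyd3, Tgfb2 and Fstl1 still rose with differentiation and Tgfb3 was not called. With siSMYD3#1, 3 of 9 members rose, where 25.4% of all genes were called, and with siSMYD3#2, 2 rose and 1 fell, where 19.0% were called. Tgfb2 went from 30.5, 25.5 and 28.7 CPM (TRIzol library first) to 94.2, 90.4 and 96.3 CPM with siSMYD3#1, which is 3.33-fold (adjusted p = 9.75e-06). With siSMYD3#2 it went from 22.0, 27.1 and 20.7 CPM to 74.0, 41.8 and 35.0 CPM, which is 2.08-fold (adjusted p = 0.000945). Neither pair of times overlapped. Fstl1 rose 1.79-fold with siSMYD3#1 (adjusted p = 7.75e-06) and 1.37-fold with siSMYD3#2 (adjusted p = 0.00259). The latter call was lost when any of 4 libraries of that siRNA was left out (adjusted p = 0.0115 to 0.0517). These were the TRIzol library at either time, NucleoSpin replicate 3 at 0 h and NucleoSpin replicate 1 at 24 h. With siSMYD3#2 the log2 change of Fstl1 was 0.78 between the TRIzol libraries and 0.25 in the NucleoSpin libraries alone (adjusted p = 0.021), not past the threshold. That of Tgfb2 was 1.75 between the TRIzol libraries and 0.64 in the NucleoSpin libraries alone (adjusted p = 0.000736).

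Tgfb3 was not called in either of these arms. With siSMYD3#1 it was at 73.2, 57.8 and 61.2 CPM at 0 h and 80.9, 67.5 and 65.3 CPM at 24 h (log2 0.15, adjusted p = 0.129), and with siSMYD3#2 at 58.4, 49.3 and 53.8 CPM and then 59.6, 50.1 and 47.7 CPM (log2 -0.04, adjusted p = 0.723). The times overlapped for both siRNAs.

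Tgfb1, the founding member of the family, fell with siSMYD3#2, from 102, 69.8 and 86.0 CPM to 77.4, 50.1 and 48.4 CPM, a decrease of 1.49-fold (log2 -0.58 ± 0.114, adjusted p = 0.000919). The times overlapped over all libraries but not within an extraction (-0.40 for TRIzol and -0.69 for NucleoSpin, the latter with adjusted p = 0.000341). With siSMYD3#1 its log2 change was -0.32 (adjusted p = 0.0304), past the threshold without the TRIzol library at 24 h (-0.46, adjusted p = 0.00633) and in the NucleoSpin libraries alone (-0.47, adjusted p = 0.00406). Bmp4 rose with siSMYD3#1, from 2.1, 0.195 and 0.210 CPM to 8.67, 1.05 and 1.63 CPM, or 5.54-fold (log2 2.47 ± 0.484, adjusted p = 0.000625). In counts these are 62, 5 and 4 at 0 h and 283, 29 and 23 at 24 h. The groups overlapped across extractions, the NucleoSpin libraries alone gave 2.65 (adjusted p = 0.00151), and without the TRIzol library at 0 h the call was lost (2.28, adjusted p = 0.0148). With siSMYD3#2 the change of Bmp4 was 0.98 (adjusted p = 0.17), and the change with siSMYD3#1 did not differ from that in siCtrl past the threshold (a difference of 1.49 ± 0.711, adjusted p = 0.573). Inhba with siSMYD3#1 had a log2 change of 0.65 (adjusted p = 0.0975), with 0.90 in the NucleoSpin libraries (adjusted p = 4.28e-06) and 0.0 between the TRIzol libraries. Gdf11 with siSMYD3#1 had a log2 change of -0.21 (adjusted p = 0.216), with -0.42 in the NucleoSpin libraries (adjusted p = 0.0023) and 0.15 between the TRIzol libraries.

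In the vector cells and in SMYD3 CL5, 0 of 9 members were called between 24 h and 0 h by edgeR, where 0.0% of 17835 genes were called in either. At an unadjusted p under 0.05 there were 2 members in the vector cells and 1 in SMYD3 CL5, and DESeq2 called 1 and 0. The 1 was Fst, at 2.57 and 3.70 CPM in the vector cells at 0 h and 0.709 and 1.2 CPM at 24 h (log2 -1.71 ± 0.372, adjusted p = 0.379 with edgeR). Bmp4 had the largest positive values, 1.92 in the vector cells (adjusted p = 0.591) and 3.01 in SMYD3 CL5 (adjusted p = 0.439), on 7 to 89 counts per library. Tgfb2, which rose in each siRNA arm, was at 18.2 and 20.3 CPM and then at 15.8 and 21.5 CPM in the vector cells (log2 -0.05), and at 21.6 and 18.8 CPM and then at 22.7 and 37.0 CPM in SMYD3 CL5 (log2 0.56, adjusted p = 0.856). Tgfb3 gave 0.53 in the vector cells and 0.13 in SMYD3 CL5 (adjusted p = 0.747 and 0.932). The differentiation markers stood at 30.7 to 42.7 CPM in the vector cells at 24 h, below siCtrl, and had already reached 85.9 to 498 CPM in SMYD3 CL5 at 0 h. Their part in these values was not tested.

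**Figure D2:**
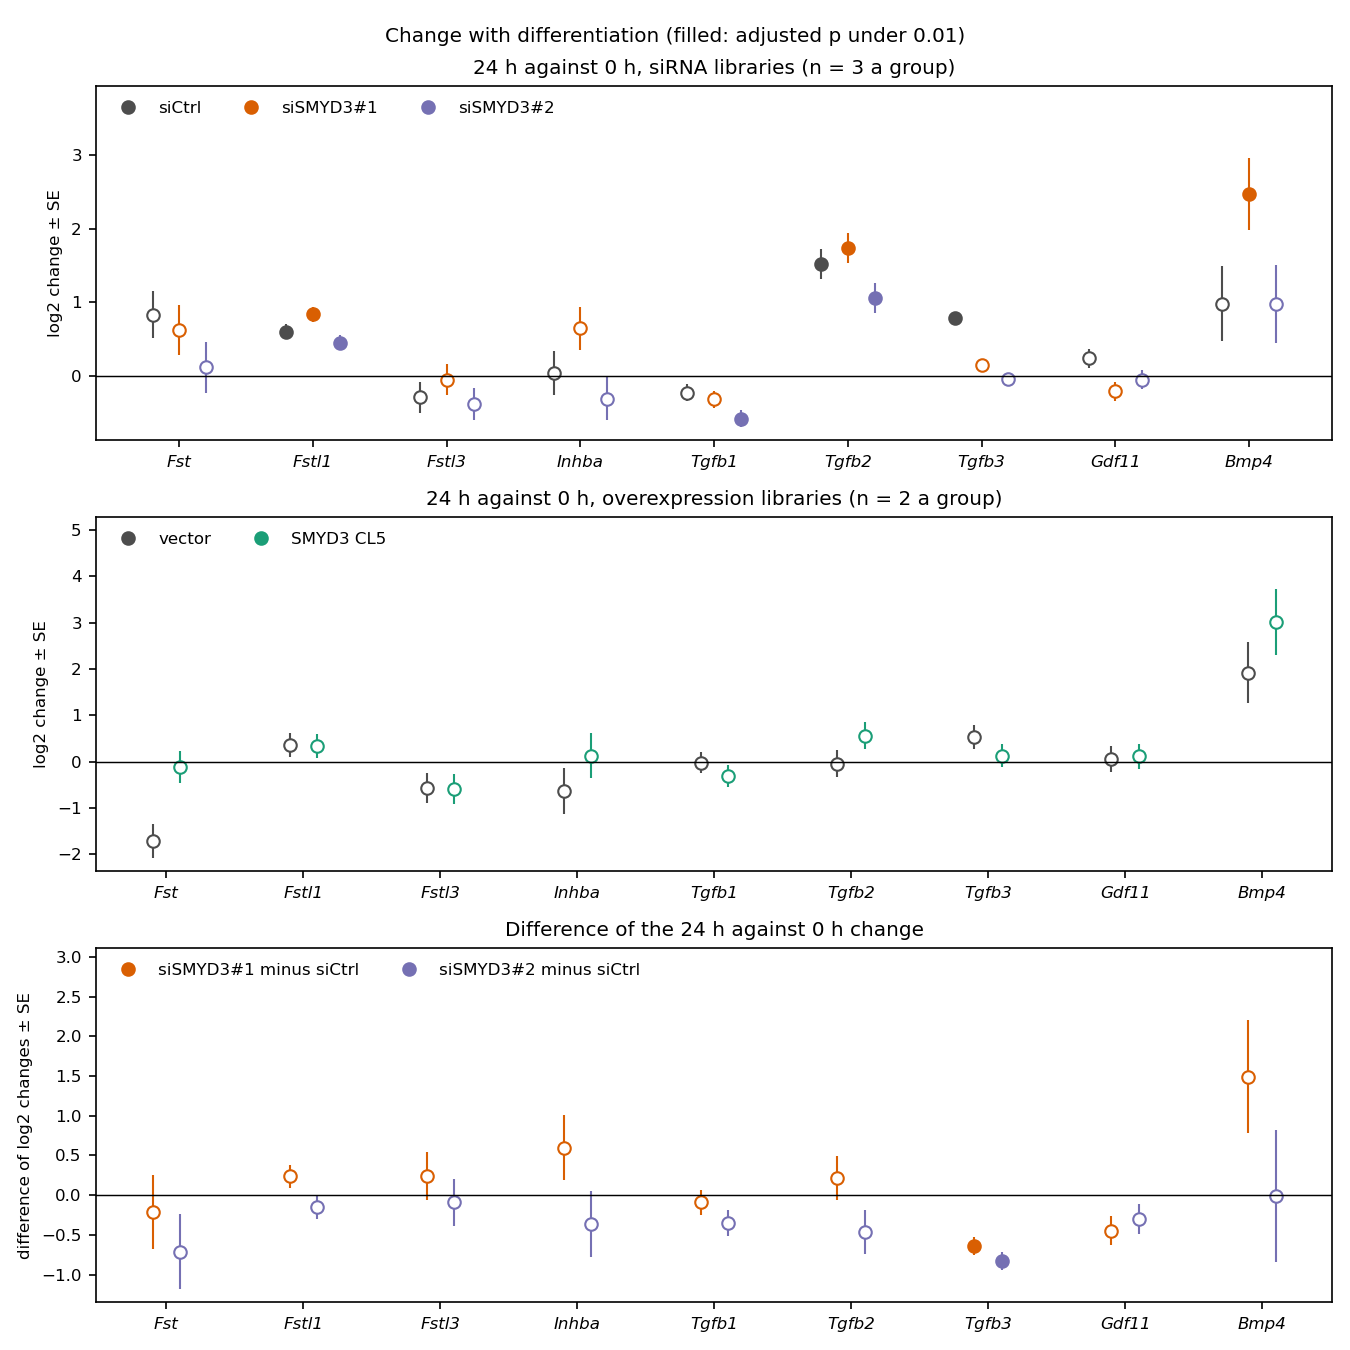
Log2 change from 0 h to 24 h of each member in the siRNA arms (top panel) and in the overexpression arms (middle panel), and the difference of that change from its control (bottom panel), with standard errors as bars and filled points for an adjusted p under 0.01. Tgfb2 lies at 1.52, 1.74 and 1.06 in the siRNA arms, and Tgfb3 at 0.79 in siCtrl against 0.15 and -0.04 with the siRNAs against Smyd3.

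The next question was whether the siRNAs against Smyd3 changed this course, which was tested as the difference between the 24 h changes. Tgfb3 was the 1 member of 9 past the threshold, for each siRNA. Its change was lower than that in siCtrl by 0.64 ± 0.111 on the log2 scale with siSMYD3#1 (a difference of -0.64, adjusted p = 0.00843), where 34 genes or 0.215% of all genes were called. With siSMYD3#2 the difference was -0.83 ± 0.112 (adjusted p = 0.00453), where 3 genes or 0.019% were called. The siRNAs differed in where Tgfb3 departed from siCtrl. With siSMYD3#1 its log2 difference was 0.48 at 0 h (adjusted p = 0.0017) and -0.16 at 24 h (adjusted p = 0.224). With siSMYD3#2 it was 0.23 at 0 h (adjusted p = 0.235) and -0.60 at 24 h (adjusted p = 0.00016). At an unadjusted p under 0.05 there were 2 members of 9 in either comparison of the changes. With the study's replicate numbers as a block, the adjusted p was 0.012 for siSMYD3#1, which is past the threshold no longer, and 0.00791 for siSMYD3#2. The NucleoSpin libraries alone gave -0.59 (adjusted p = 0.0289) and -0.84 (adjusted p = 0.00286). Leaving out 1 library lost the call in 16 of 18 cases for siSMYD3#1 (adjusted p up to 0.0437) and in 11 of 18 for siSMYD3#2 (up to 0.0339), while the difference stayed between -0.67 and -0.59 and between -0.88 and -0.79 in those cases. The 2 comparisons share the siCtrl libraries.

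At 0 h, before differentiation, few members were called against siCtrl. With siSMYD3#1, 1 of 9 was called, where 1.43% of all genes were called. This was Tgfb3, at 73.2, 57.8 and 61.2 CPM against 50.2, 40.0 and 47.3 CPM (TRIzol library first), with no overlap, and 1.39-fold higher (log2 0.48 ± 0.0786, adjusted p = 0.0017). The call was lost without any of 5 libraries (adjusted p = 0.0104 to 0.018), which were the 3 of siSMYD3#1 and the TRIzol and NucleoSpin replicate 2 libraries of siCtrl at 0 h. Fstl1 was at 813, 796 and 811 CPM against 618, 605 and 619 CPM, also without overlap, but at 1.31-fold it missed the threshold (adjusted p = 0.0379). Inhba had the largest log2 difference, 0.79 (adjusted p = 0.212), at 164, 80.8 and 82.5 CPM against 114, 46.3 and 37.6 CPM. In the NucleoSpin libraries alone it passed (0.97, adjusted p = 4.08e-05). With siSMYD3#2, 0 of 9 members were called at 0 h by edgeR and 0 by DESeq2, with 3 at an unadjusted p under 0.05, where 0.531% of all genes were called. Fstl1 was again without overlap, at 760.3, 785 and 753 CPM (1.25-fold, adjusted p = 0.193).

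At 24 h the 2 siRNAs called different members. With siSMYD3#1, Fstl1 and Inhba were higher than in siCtrl, 2 of 9 members, where 5.85% of all genes were called (2.91% higher and 2.94% lower). With siSMYD3#2, Tgfb3 was lower, 1 of 9, where 3.70% were called (1.66% higher and 2.04% lower). The median log2 difference of the members was 0.35 with siSMYD3#1 and -0.21 with siSMYD3#2, and it was 0.00 over all genes in both. The 2 comparisons share the siCtrl libraries, and the differentiation markers were below siCtrl with both siRNAs, at the levels given above. The part of those markers in these results was not tested.

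Fstl1 was at 1592, 1329 and 1416 CPM with siSMYD3#1 and at 1136, 843 and 834 CPM in siCtrl. All siSMYD3#1 libraries were above all siCtrl libraries, by 1.55-fold (log2 0.63 ± 0.102, adjusted p = 0.000399), with 0.49 in the TRIzol libraries and 0.72 in the NucleoSpin libraries (adjusted p = 1.11e-05). With siSMYD3#2 Fstl1 was at 1308, 962 and 907 CPM and overlapped with siCtrl (1.13-fold, adjusted p = 0.34).

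Inhba was at 163, 145 and 162 CPM with siSMYD3#1 and at 58.5, 57.9 and 61.2 CPM in siCtrl. The groups stood far apart, and the ratio was 2.63-fold (log2 1.40 ± 0.299, adjusted p = 0.008). The call was nevertheless lost with the replicate block (adjusted p = 0.0124) and when any of 11 libraries was left out (log2 1.11 to 1.57, adjusted p up to 0.0353), 5 of them siCtrl or siSMYD3#1 libraries at 24 h, but the NucleoSpin libraries alone gave 1.37 with an adjusted p of 1.94e-07. The change of Inhba between 0 h and 24 h did not differ from that in siCtrl past the threshold (a difference of 0.60, adjusted p = 0.793). With siSMYD3#2 the NucleoSpin libraries, at 51.7 and 49.7 CPM, were below those of siCtrl and the TRIzol library, at 109 CPM, was above it (log2 0.10, adjusted p = 0.90).

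Tgfb3 was at 59.6, 50.1 and 47.7 CPM with siSMYD3#2 and at 91.9, 74.0 and 73.1 CPM in siCtrl. Every siSMYD3#2 library was below every siCtrl library, by 1.52-fold (log2 -0.60 ± 0.0792, adjusted p = 0.00016), with -0.63 and -0.59 in the TRIzol and NucleoSpin libraries. No left-out library lost this call. With siSMYD3#1 the value was -0.16 (adjusted p = 0.224), with overlapping groups.

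Among the other members, Bmp4 with siSMYD3#1 came close to the threshold, at 8.67, 1.05 and 1.63 CPM against 4.50, 0.0877 and 0.131 CPM (log2 1.86 ± 0.455, adjusted p = 0.0109). It was above siCtrl within each extraction, with 0.94 between the TRIzol libraries and 3.57 between the NucleoSpin libraries (adjusted p = 0.0014), the latter resting on 2 counts in each siCtrl library. Leaving out 1 of 4 libraries made it pass, and DESeq2 called it. Fst, the antagonist, was at 8.92, 1.49 and 0.566 CPM with siSMYD3#1 and at 5.22, 1.09 and 1.27 CPM with siSMYD3#2, against 6.72, 3.29 and 3.20 CPM in siCtrl. The log2 differences were -0.71 and -1.07 (adjusted p = 0.195 and 0.059). In the NucleoSpin libraries alone both passed the threshold, at -1.54 (adjusted p = 0.00447) and -1.46 (adjusted p = 0.00974), while the TRIzol libraries differed by 0.41 and -0.36. Gdf11 was at 38.0, 36.6 and 39.8 CPM with siSMYD3#2 against 40.0, 59.5 and 61.2 CPM in siCtrl, without overlap (log2 -0.46, adjusted p = 0.0369), and it passed when the TRIzol library of siSMYD3#2 was left out (-0.63, adjusted p = 0.00851). Without that library Tgfb2 passed as well (-0.86, adjusted p = 0.00797, against -0.52 and 0.113 with it). With siSMYD3#1 Tgfb2 and Gdf11 had log2 differences of 0.41 and -0.31 (adjusted p = 0.207 and 0.149), and in the NucleoSpin libraries alone both passed (0.66, adjusted p = 0.000771, and -0.52, adjusted p = 0.00133), while the TRIzol libraries differed by -0.05 and 0.09.

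**Figure D3:**
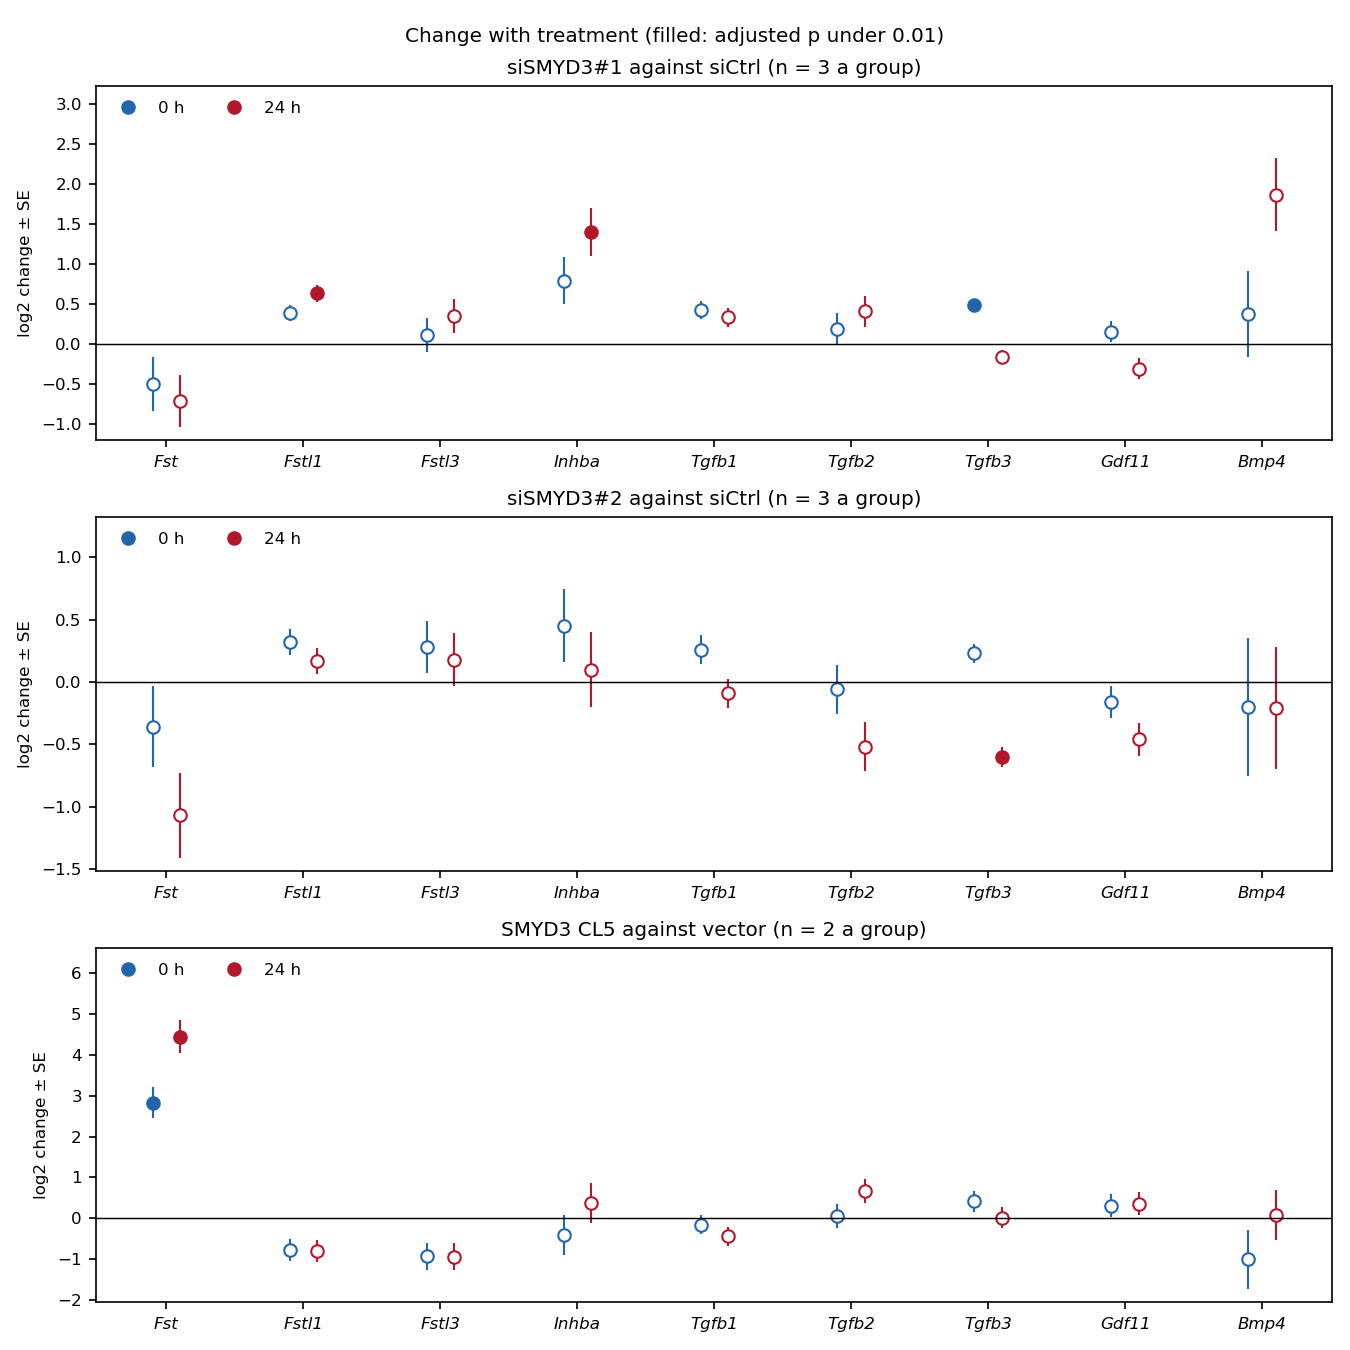
Log2 difference of each member from its control at 0 h and at 24 h for siSMYD3#1 (top panel), siSMYD3#2 (middle panel) and SMYD3 CL5 (bottom panel), with standard errors as bars and filled points for an adjusted p under 0.01. Fst in SMYD3 CL5, at 2.83 and 4.43, is the highest point of the bottom panel, and Inhba at 24 h, at 1.40, is the highest filled point of the top one.

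Since the siRNAs target the same transcript, they were also compared with each other. At 0 h, 0 of 9 members differed by edgeR and 0 by DESeq2, with 2 at an unadjusted p under 0.05, where 1.17% of all genes were called. At 24 h, 3 of 9 were higher with siSMYD3#1 than with siSMYD3#2, where 3.36% were called. Fstl1 was 1.37-fold higher (log2 0.46 ± 0.102, adjusted p = 0.00877), Tgfb2 1.91-fold (0.93 ± 0.196, adjusted p = 0.00758) and Tgfb3 1.36-fold (0.44 ± 0.0792, adjusted p = 0.0019), each without overlap. With the replicate block the adjusted p of Fstl1 was 0.0133 and that of Tgfb2 0.0112, both no longer past the threshold. The call of Fstl1 was lost in 15 of 18 cases in which 1 library was left out (adjusted p up to 0.104), that of Tgfb2 in 13 (up to 0.0631) and that of Tgfb3 in 3 (0.0121 to 0.0244), these 3 being NucleoSpin libraries at 24 h. Bmp4 (log2 2.07, adjusted p = 0.01) and Inhba (1.3, adjusted p = 0.0173) were outside the threshold, and in the NucleoSpin libraries alone both passed it (3.41, adjusted p = 0.00257, and 1.6, adjusted p = 1.22e-07). Smyd3 itself was 2.41-fold higher with siSMYD3#1 than with siSMYD3#2 at 24 h (adjusted p = 0.000176).

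In SMYD3 CL5 the outstanding member was follistatin. Fst was at 23.0 and 21.8 CPM in the clone and at 2.57 and 3.70 CPM in the vector cells at 0 h, 7.12-fold higher (log2 2.83 ± 0.371, adjusted p = 0.00927). At 24 h it was at 25.4 and 16.2 CPM against 0.709 and 1.2 CPM, 21.6-fold higher (log2 4.43 ± 0.402, adjusted p = 0.00242). The clone lay above every other library of the series at both times, the highest siRNA library being a siSMYD3#1 library with 8.92 CPM. Fst was 1 of 9 members called at 0 h, where 1.07% of all genes were called, and 1 of 9 at 24 h, where 0.964% were (0.376% higher and 0.589% lower). With 2 libraries per condition, the call was lost in 6 of 8 cases at 0 h (log2 2.66 to 3.12, adjusted p up to 0.105), which were either vector library at 0 h and each of the 4 libraries at 24 h, and in 4 of 8 at 24 h, each of the libraries at that time (log2 4.07 to 4.91, adjusted p = 0.0141 to 0.0333). The time change of Fst in the clone and in the vector cells differed by 1.6 ± 0.503 on the log2 scale, which did not pass (adjusted p = 1.0), and 0 of 9 members differed in their time change by edgeR (0.0% of all genes) and 0 by DESeq2, with 1 at an unadjusted p under 0.05. The differentiation markers, 2.79 to 5.96 CPM in the vector cells and 85.9 to 498 CPM in the clone at 0 h, were also higher in the clone, and their part in the Fst result was not tested.

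No other member was called in the clone. Fstl3, an antagonist like follistatin, was at 9.26 and 16.6 CPM against 20.0 and 28.9 CPM at 0 h and at 8.97 and 8.20 CPM against 16.7 and 16.2 CPM at 24 h. The log2 differences of Fstl3 were -0.92 and -0.94 (adjusted p = 0.196 and 0.236). Fstl1 was likewise below the vector cells, at 744 and 524 CPM against 1068 and 1091 CPM at 0 h and at 819 and 773 CPM against 1454 and 1290.3 CPM at 24 h (log2 -0.77 and -0.79, adjusted p = 0.176 and 0.205). With 2 libraries per condition, groups without overlap were also seen for other members that were not called, such as Tgfb1 at both times. Inhba could not be placed, since its clone libraries at 0 h were at 147 and 43.4 CPM. Leaving out the first made it lower than in the vector cells (log2 -1.48, adjusted p = 0.00312), and leaving out the second turned the sign (0.25, adjusted p = 0.487). At 24 h it was at 114 and 95.5 CPM against 84.0 and 78.1 CPM (log2 0.37, adjusted p = 0.857). The other 5 members had log2 differences of -1.0 to 0.68 at the 2 times, with adjusted p-values of 0.366 or more.

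The wider pathway was read from 6 lists of genes, some of which stand in 2 lists (Smad6, Smad7, Skil and Bambi). Calls in these lists come from the fits described above, with extraction as a term for the siRNA libraries. Values without that term, by extraction or with a library left out are not given for them. Among the receptors, 11 of 14 were tested. In siCtrl 1 rose and 0 fell by 24 h, where 14.6% and 14.8% of all genes did. Tgfbr2, the type II receptor of the TGF-beta isoforms, rose 2.19-fold in siCtrl by 24 h, from 109 ± 10.4 to 242 ± 48.8 CPM (SD, n = 3; adjusted p = 2.99e-05). With siSMYD3#1 at 24 h, 1 receptor was higher and 1 lower, where 2.91% and 2.94% of all genes were. These were Tgfbr3 or betaglycan (1.85-fold higher, adjusted p = 0.00258) and the activin type I receptor gene Acvr1b (1.73-fold lower, adjusted p = 0.00249). With siSMYD3#2, 0 receptors were higher and 0 lower, where 1.66% and 2.04% of all genes were. In SMYD3 CL5, Tgfbr3 was at 0.984 ± 0.237 CPM against 32.1 ± 3.14 CPM in the vector cells at 24 h (SD, n = 2), 33.3-fold lower (adjusted p = 0.00289).

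Among 17 tested genes for proteins that bind or activate the ligands, 3 rose and 3 fell in siCtrl by 24 h, a share near that of all genes (14.6% higher and 14.8% lower). Dcn, for the TGF-beta-binding proteoglycan decorin, rose 28.4-fold (adjusted p = 7.8e-11), Chrd, for the BMP antagonist chordin, rose 3.83-fold (adjusted p = 8.94e-06), and Grem1, for the BMP antagonist gremlin, fell 3.99-fold (adjusted p = 2.47e-07). With siSMYD3#1 at 24 h, 6 of the 17 were higher than in siCtrl and 0 lower, against a background of 2.91% and 2.94%, with a median log2 difference of 0.61. They included Lrrc32, which anchors latent TGF-beta (3.63-fold, adjusted p = 0.00117), Thbs1, which activates it (2.70-fold, adjusted p = 0.00304), and Pcsk6, a proprotein convertase (2.08-fold, adjusted p = 0.00377). The libraries of a group spread widely for Thbs1, at 3159 ± 3340 CPM with siSMYD3#1 and 1155 ± 1201 CPM in siCtrl (SD, n = 3). The same held for Grem1 in siCtrl, at 123 ± 144 CPM at 0 h and 33.1 ± 41.9 CPM at 24 h. With siSMYD3#2 there were 1 higher and 1 lower, where 1.66% and 2.04% of all genes were. These were the latent binding protein gene Ltbp1 (1.52-fold higher, adjusted p = 0.00168) and Dcn (2.60-fold lower, adjusted p = 0.000236). In SMYD3 CL5 at 24 h, 2 of 18 were lower, where 0.589% of all genes were. They were Bgn, for biglycan (32.2-fold, adjusted p = 0.00161), and Pcsk6, which had 0 counts in both clone libraries and 129 to 314 in the vector libraries (at least 39.0-fold lower against 3 counts a library, adjusted p = 0.00587).

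Of 9 genes that respond to SMAD2 and SMAD3, 6 were higher than in siCtrl with siSMYD3#1 at 24 h and 0 lower, where 2.91% and 2.94% of all genes were. The median log2 difference was 0.66, and the 6 included Tgfbi (5.77-fold, adjusted p = 0.000745), Col1a1 (4.30-fold, adjusted p = 0.00024) and Ccn2 (2.91-fold, adjusted p = 8.21e-05). With siSMYD3#2, 1 of 9 was higher, Ccn2 (2.18-fold, adjusted p = 0.00203), and the median was 0.32, where 1.66% of all genes were higher. In siCtrl between 0 h and 24 h, 0 of the 9 rose and 3 fell, where 14.6% and 14.8% of all genes did, among them Ccn2 (3.22-fold, adjusted p = 5.58e-06) and Smad7 (2.14-fold, adjusted p = 8.28e-06). Those genes respond to other signals as well. They also differed with extraction in the siRNA libraries. TRIzol against NucleoSpin called 5 of the 9 higher and 2 lower (median log2 difference 0.64), where 51.3% of all genes were called.

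Genes that respond to BMPs through SMAD1 and SMAD5 fell with differentiation in every siRNA arm. In siCtrl 7 of 7 fell, with a median log2 change of -1.58, against 14.8% of all genes. Id2 fell 7.26-fold (adjusted p = 5.74e-10), Id3 6.46-fold (adjusted p = 0.000519) and Bambi 4.21-fold (adjusted p = 0.000428). The siCtrl libraries spread widely for Id3 at 24 h, at 140 to 2066 counts, against 3011 to 6801 at 0 h. Bambi rested on few counts, 3 to 12 per siCtrl library at 24 h and 26 to 72 at 0 h. The size of these 2 falls is therefore uncertain. The Id proteins hold back MYOD and its partners. With siSMYD3#1, 5 of 7 fell and with siSMYD3#2, 6 of 7, with a median of -1.55 in each. In these arms 25.4% and 19.0% of all genes were called in either direction. Whether BMP signalling changed was not tested. TRIzol against NucleoSpin called 5 of the 7 higher and 0 lower (median log2 difference 1.1), where 51.3% of all genes were called. At 24 h, Hey1 was lower than in siCtrl with both siRNAs (2.96-fold, adjusted p = 5.4e-06, and 1.72-fold, adjusted p = 0.00377), where 2.94% and 2.04% of all genes were. In the vector cells and SMYD3 CL5 the medians were -1.46 and -1.32, in comparisons in which no gene of the table was called.

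Of the 14 signal transducers and their inhibitors, all tested, 1 rose and 4 fell in siCtrl by 24 h, where 14.6% and 14.8% of all genes did, among the latter Smad9 (2.58-fold, adjusted p = 0.00099). With siSMYD3#1 at 24 h, 1 was higher, the repressor gene Skil (1.33-fold, adjusted p = 0.00795), where 2.91% of all genes were. With siSMYD3#2, 0 were higher and 0 lower, where 1.66% and 2.04% of all genes were. Only 4 of 14 other ligand and inhibin genes passed the filter on low counts. Of these, Inha, for the inhibin alpha subunit, rose 1.98-fold in siCtrl (adjusted p = 0.00542), where 14.6% of all genes rose. Inhbb, for the activin B subunit, was 3.62-fold higher with siSMYD3#1 at 24 h (75.5 ± 27.0 against 23.6 ± 14.9 CPM, SD, n = 3, adjusted p = 0.000503), where 2.91% of all genes were. This was the same direction as Inhba. With siSMYD3#2 the log2 difference of Inhbb was 0.51 (adjusted p = 0.308), and 0 of the 4 were called.

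**Figure D4:**
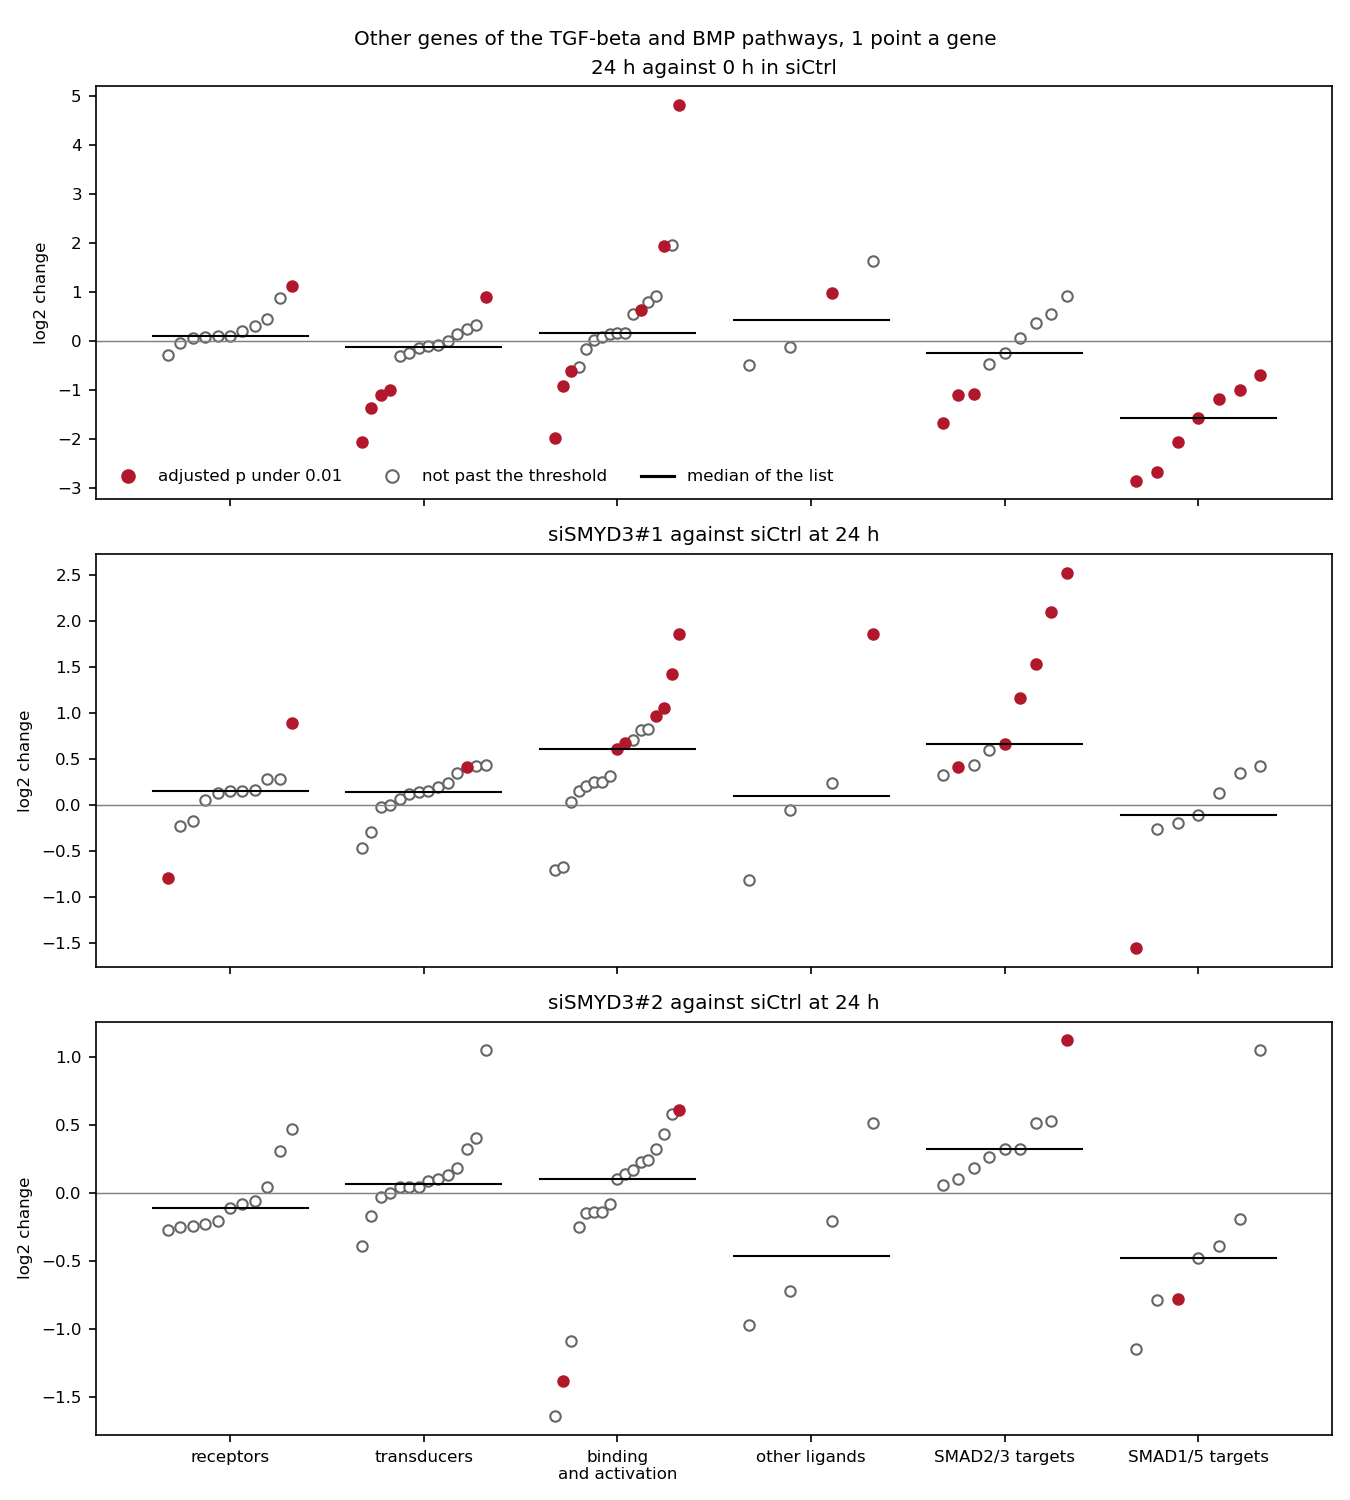
Log2 differences of the genes of 6 pathway lists in 3 comparisons (siCtrl at 24 h against 0 h, siSMYD3#1 and siSMYD3#2 against siCtrl at 24 h), with 1 point per gene tested, filled for an adjusted p under 0.01, and a line at the median of each list. The 7 SMAD1/5 targets all lie below 0 in the time comparison, with a median of -1.58, and the SMAD2/3 targets have a median of 0.66 in the siSMYD3#1 comparison.

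The genes with the most similar pattern to Fst and Bmp4 were sought over the 18 siRNA libraries by Pearson's r of log2 CPM, as a description. D11Wsu47e (r = 0.953), Zfp658 (0.942) and Wdr83 (0.931) were most like Fst, and Fhod3 (0.945), Vcan (0.945) and Slc7a2 (0.944) most like Bmp4. These libraries share the division into TRIzol and NucleoSpin, along which both members differ. No such genes can be given for Mstn, at 0 in every library.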

How the data were processed

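RNA-Seq was performed on 26 C2C12 libraries with the TruSeq Stranded mRNA kit and paired-end sequencing. Per the submitters' processing notes, reads were checked with FastQC 0.11.5, aligned to GRCm38 with HISAT2 2.1.0 and counted per gene with featureCounts (Subread 1.6.3), and the authors deposited raw counts per library without normalization. The strand setting, the handling of multiply aligned reads and the annotation release are not given in the sources used here. Any read that the counting left out or gave to another gene is therefore already missing from these counts. The files held 55341 genes, of which 54409 had a record in GENCODE M21 (symbols, coordinates, exon lengths), and 0 pairs of libraries were identical. The siRNA libraries had a median of 25576626.5 counts and the overexpression libraries 41890109.

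Counts were tested in R 4.3.3 with edgeR 4.0.16 (filterByExpr with a minimum count of 10, TMM, robust quasi-likelihood test). The 18 siRNA libraries were fitted as 6 groups with extraction as covariate (15820 genes), following the model and threshold of the study, and the 8 overexpression libraries as 4 groups (17835 genes). A standard error is the log2 difference divided by the square root of F. RPKM was computed with the exon length of each gene. DESeq2 1.42.0, RLE scale factors (edgeR), no filter, no covariate, NucleoSpin libraries alone, all libraries in 1 fit, an adjusted p under 0.05, a replicate block and the omission of each library were the alternatives. The scripts were tested on simulated data.

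Groups, times and extraction were taken from the sample labels, and replicate and passage numbers from the study's table of libraries. Deviations from the group means of siRNA libraries with the same study replicate number correlated at r = 0.289 to 0.823. Study replicate 3 is the TRIzol library of every group, so this correlation includes extraction, and between the NucleoSpin libraries alone the r was -0.074 to 0.118, so beyond extraction the numbers were not seen to pair samples. The blocked values are given beside the results they change.

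The members, the pathway and marker lists and the tests were chosen with earlier results of these data known. All 10 members are named. From each pathway list up to 3 genes past the threshold with the largest log2 difference are named in the time course of siCtrl and in the 3 treatments at 24 h, except 1 that is not reported here. Genes of similar pattern were sought for Mstn, Fst and Bmp4. Protein sequences were not used here.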

Additional observations from a re-analysis of the deposited data

Results flagged for a closer look

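Of the members, 3 differed between the 2 siRNAs at 24 h by a direct test, all higher with siSMYD3#1: Fstl1 by 0.46, Tgfb2 by 0.93 and Tgfb3 by 0.44 on the log2 scale. The change of Tgfb3 between 0 h and 24 h differed from that in siCtrl for each siRNA, by -0.64 with siSMYD3#1 and -0.83 with siSMYD3#2. All 5 come from the edgeR fit of the siRNA libraries, and their standard errors, adjusted p-values and the libraries they depend on are given above. Groups of 2 or 3 libraries are too small for a test of outlying samples.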

How the results depend on the processing

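Of 153 pairs of a member and a comparison, 26 passed the threshold as reported and 52 did so there or under at least 1 alternative. Under DESeq2, 47 of the 52 kept their direction and side of the threshold and 5 were gained. The number of members past the threshold moved as follows. For siSMYD3#1 against siSMYD3#2 at 24 h (3 as reported) it was 5 with DESeq2, 6 without the filter, 6 at an adjusted p under 0.05, 5 in the NucleoSpin libraries alone, and 0 without the covariate or with all libraries in 1 fit. For siSMYD3#1 against siCtrl at 24 h (2) it was 6 in the NucleoSpin libraries, 0 without the covariate and 1 in the single fit, and at 0 h (1) it was 3 at an adjusted p under 0.05, 2 without the filter, 3 in the NucleoSpin libraries, and 0 without the covariate or in the single fit. For siSMYD3#2 against siCtrl at 24 h (1) it was 2 at an adjusted p under 0.05, 4 without the filter, 4 in the NucleoSpin libraries, and 0 without the covariate or in the single fit. The time course gave 6 in the NucleoSpin libraries with siSMYD3#1 (3) and 1 without the covariate with siSMYD3#2 (3). The siRNAs at 0 h gave 1 in the NucleoSpin libraries (0). The difference of change gave 0 for siSMYD3#1 (1) without the filter, without the covariate, in the NucleoSpin libraries and in the single fit, and 0 for siSMYD3#2 (1) without the covariate and in the single fit. In the overexpression libraries the vector time course gave 1 with DESeq2 and 1 without the filter (0), that of SMYD3 CL5 1 without the filter (0), and SMYD3 CL5 against the vector cells 2 at 0 h and 2 at 24 h in the single fit (1 each). The cause was not tested.

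With the replicate block, siSMYD3#1 against siCtrl at 24 h gave 1, siSMYD3#1 against siSMYD3#2 at 24 h gave 1 and the difference of change for siSMYD3#1 gave 0, with the adjusted p-values given above. The block changed no other call of a member. In the overexpression libraries the deviations of libraries with the same replicate number correlated at r = -0.0944 to 0.458. The highest value was between the 0 h and 24 h libraries of SMYD3 CL5. The block left Fst called at both times.

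Leaving out 1 library in turn gave 3 to 4 members in the time course of siCtrl, 2 to 4 with siSMYD3#1 and 2 to 3 with siSMYD3#2, 0 to 1 for siSMYD3#1 against siCtrl at 0 h and 1 to 3 at 24 h, 0 to 0 for siSMYD3#2 at 0 h and 1 to 3 at 24 h, 0 to 5 between the siRNAs at 24 h, 0 to 1 for each difference of change, 0 to 1 in the time course of SMYD3 CL5, and 0 to 2 at 0 h and 0 to 1 at 24 h for SMYD3 CL5 against the vector cells. Inhba changed sign: in the time course of siCtrl it was -0.16 without the covariate and -0.13 to 0.35 over the left-out libraries (0.04 as reported; -0.13, -0.08 and -0.13 without NucleoSpin replicate 3 at 0 h and NucleoSpin replicates 2 and 3 at 24 h), in that of SMYD3 CL5 -0.50 to 1.25 (0.13) and in SMYD3 CL5 against the vector cells at 0 h -1.48 to 0.25 (-0.40), each turned by 1 of the clone's 0 h libraries. A further 37 pairs that never passed the threshold changed sign under some alternative. Depth limits Bmp4, at 1 to 9 counts in several NucleoSpin libraries, and Mstn.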
